A study of Solanum tuberosum with 5 samples.

Results

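In 123 tags of the potato series, the library of plantlets kept for 2 days in short days (SD) held at most 1/3 of the level of every other library, and the level was high again after 5 days in SD. The tags were chosen by this pattern itself, from the 6208 tags that were listed in all 5 libraries and reached a level of 10 TPM (tags counted, scaled to a library of 1000000 tags) in at least 1 of them. They are 1.98% of those tags, out of 8910 tags listed in all 5 libraries and 27553 distinct tags in all. In the rule 1 TPM was added to each value, so that SD day 2 plus 1 was at most 1/3 of each other library plus 1. Because the rule used these values, the dip is described here and not tested. Applied in the same way to the other libraries, the rule found 46 tags low at SD day 5, and in long days (LD) 38 at day 0, 2 at day 2 and 9 at day 5.

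The libraries were made from whole plantlets of the genotype labelled E26, all grown for 3 weeks in LD. SD day 2 and SD day 5 came from plantlets then moved to SD for 2 or 5 days, LD day 0 was taken before the transfer, and LD day 2 and LD day 5 came from plantlets that stayed in LD. Each group is 1 library of polyadenylated RNA, and the labels do not say how many plantlets a library pooled. In each library a transcript is represented by a 21-base tag next to a restriction site, and a TPM value is not divided by transcript length. SD day 2 held 3507408 tags in total, within the range of the 5 libraries of 3492458 to 3688120. Each comparison sets 1 library against another, so no difference has a replicate check. Tags with thymine (T) at both of their last 2 positions, an ending that 85 of the 123 tags have, made up the smallest share of the listed sum in SD day 2, at 5.47%. LD day 0 came next at 8.30%, and the other 3 libraries had 15.97% to 20.04%.

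In potato, short days favour the formation of tubers. Day length is sensed in the leaves, where a protein of the FLOWERING LOCUS T family, SP6A, is made and moves to the underground stems that swell into tubers, and CONSTANS-like factors hold this signal back in long days. The deposited files give tags without gene names, so none of the 123 tags is tied to a gene here. Tags are called dip tag 1 to dip tag 123, from the highest to the lowest mean over the 4 libraries other than SD day 2. In bulk plantlets, fewer cells of a type and less RNA per cell cannot be told apart.

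Summed over the 123 tags, the level was 1681 TPM at SD day 2 and 18855 TPM at SD day 5, while LD gave 6639 TPM at day 0, 11791 TPM at day 2 and 13782 TPM at day 5. The median tag had 3.71 TPM at SD day 2 and 49.2 TPM at SD day 5, while LD gave 17.2 TPM at day 0, 32.4 TPM at day 2 and 42.3 TPM at day 5. Among the libraries other than SD day 2, the lowest level was mostly that of LD day 0. LD day 0 held that place for 105 of the 123 tags, or 85.4%, against 39.7% of all 6208 tags. In 88 tags (71.5%) the LD values increased in the order of day 0, day 2 and day 5, as they did in 29.2% of all tags. The medians of all 706 tags with T at both last positions, 85 of them members, also rose in LD. They were 11.0, 22.7 and 27.4 TPM at days 0, 2 and 5, and 29.5 TPM at SD day 5. Tags with other endings did not share this rise. With 1 T and 1 cytosine last, LD medians were 19.2, 17.2 and 19.5 TPM for all 657 tags. The 23 members among them had 11.0, 20.3 and 32.3 TPM. For the remaining 4845 tags the LD medians were 19.45, 19.46 and 18.71 TPM. The 15 members among those had 18.6, 50.5 and 97.9 TPM. Over all 6208 tags the medians were 18.3, 19.5 and 19.8 TPM in LD and 18.0 TPM at SD day 5. Shares matched by ending were not counted. SD day 2 is by the rule the lowest of the 5 libraries in all 123 tags, and it was so in 24.8% of all 6208. Without LD day 0 in the rule, 570 tags qualified.

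**Figure D1:**
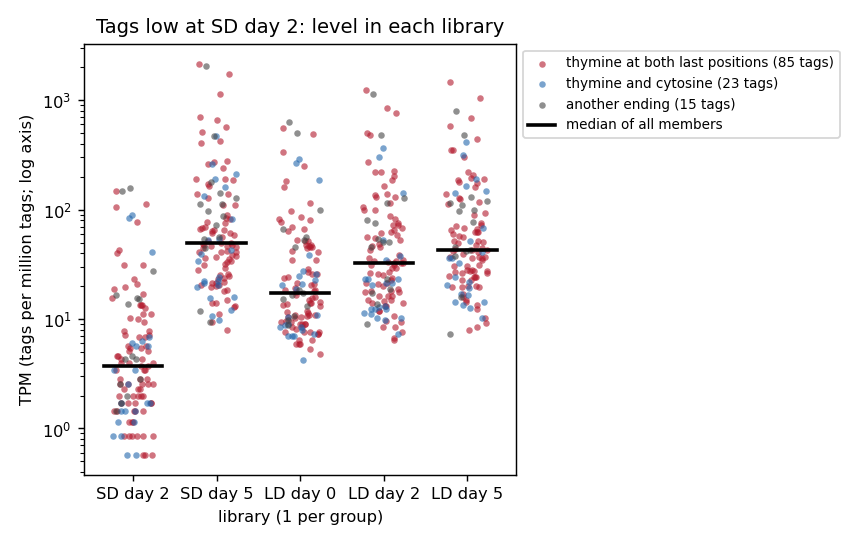
Level of the 123 tags in each library, in TPM on a log axis, with 1 point per tag coloured by the last 2 positions of the tag and a black line at the median of all members. The medians are 3.71 TPM at SD day 2 and 49.2 TPM at SD day 5, with 17.2, 32.4 and 42.3 TPM at days 0, 2 and 5 of LD.

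The rule cut the depth of the dip at 3-fold, so the depths given here are partly set by that cut. Relative to whichever other library was lowest, SD day 2 was 4.50-fold lower in the median tag, with a range of 3.01-fold to 13.4-fold. With 1 TPM added, 84 tags lay between 3-fold and 4-fold below the lowest other library, 39 were 4-fold or more below it, and 10 were 5-fold or more below it. Against single libraries, the SD day 2 level of the median tag was 13.1-fold below SD day 5, and below LD by 4.53-fold at day 0, 8.39-fold at day 2 and 11.0-fold at day 5. The exact 95% counting interval of the deposited ratio to the lowest other library lay wholly beyond a 3-fold difference for 26 of the 123 tags and reached within it for the rest. The median tag rested on 13 counted tags in SD day 2, 52 rested on fewer than 10 and 18 on fewer than 5. These counting intervals leave out variation between plantlets and between library preparations, since each group is 1 library. Tags amplified without molecular identifiers are not independent molecules, so the intervals may also be too narrow for counting error.

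At the threshold, the last 2 tags inside had a ratio of 0.332 and 0.333 to the lowest other library with 1 TPM added, and the first 2 outside both had 0.337. The tag at 0.333 lies exactly on 1/3.

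The deepest dip relative to the lowest other library, with 1 TPM added, was that of dip tag 40. It had 3.99 TPM at SD day 2 and 69.9 TPM at SD day 5, while LD gave 63.1 TPM at day 0, 46.8 TPM at day 2 and 71.0 TPM at day 5. All libraries but SD day 2 lay close together, and SD day 2 was 11.7-fold lower than LD day 2, the lowest of them (interval 6.80 to 21.9). Dip tag 53 had 3.71 TPM at SD day 2 and 75.9 TPM at SD day 5, while LD gave 28.8 TPM at day 0, 29.1 TPM at day 2 and 47.7 TPM at day 5. SD day 2 lay 7.75-fold below LD day 0 (interval 4.34 to 15.1). Dip tag 18 had 6.84 TPM at SD day 2 and 239.95 TPM at SD day 5, while LD gave 47.9 TPM at day 0, 114 TPM at day 2 and 208 TPM at day 5. In this tag LD values also increased with time, and the distance to LD day 0 was 7.004-fold (interval 4.55 to 11.2). Dip tag 24 had 7.13 TPM at SD day 2 and 163 TPM at SD day 5, while LD gave 41.4 TPM at day 0, 131 TPM at day 2 and 124 TPM at day 5. Dip tags 121 and 35 rested on 2 and 3 counted tags in SD day 2, so their depth is poorly fixed. The ratio to LD day 0 was 13.4-fold lower for dip tag 121 (interval 3.35 to 116) and 10.5-fold lower for dip tag 35 (interval 3.30 to 53.8). Dip tag 35 also had the widest swing, with 0.86 TPM at SD day 2 and 132 TPM at SD day 5, while LD gave 9.02 TPM at day 0, 20.3 TPM at day 2 and 143 TPM at day 5.

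The tags covered a wide range of abundance, from a mean of 8.09 TPM to a mean of 1350 TPM over the 4 libraries other than SD day 2. The median was 37.1 TPM, against 19.7 TPM for all 6208 tags. Since the rule needs a value well above the SD day 2 value in every other library, scarce tags could enter less easily, and this difference in abundance is given as a description. By that mean, 34 tags lay below 20 TPM, 41 from 20 to 50 TPM, 18 from 50 to 100 TPM and 30 at 100 TPM or more. From the scarcest to the most abundant class, the deposited SD day 2 level was 5.81-fold, 4.50-fold, 3.89-fold and 3.66-fold below the lowest other library in the median tag. With 1 TPM added, as in the rule, the median log2 ratios were -1.90, -1.81, -1.79 and -1.83. The 1 TPM makes the rule ask a larger deposited fold of scarce tags, so the order of the deposited folds is partly set by the choice of tags. The 8 most abundant tags held 52.4% of the summed level at SD day 2 and 48.8% at SD day 5, while in LD their share was 48.8% at day 0, 49.1% at day 2 and 42.2% at day 5.

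Dip tag 1 had 146 TPM at SD day 2 and 2157 TPM at SD day 5, while LD gave 550.45 TPM at day 0, 1227 TPM at day 2 and 1465 TPM at day 5. Dip tag 2 had 148 TPM at SD day 2 and 2030.4 TPM at SD day 5, while LD gave 637 TPM at day 0, 1132 TPM at day 2 and 801 TPM at day 5. Dip tag 3 had 112 TPM at SD day 2 and 1722 TPM at SD day 5, while LD gave 491 TPM at day 0, 757 TPM at day 2 and 1039 TPM at day 5. These 3 tags had their lowest value in SD day 2 and their highest in SD day 5. Dip tag 4 showed the same order of extremes, with 77.5 TPM at SD day 2 and 1146 TPM at SD day 5, while LD gave 248 TPM at day 0, 856 TPM at day 2 and 693 TPM at day 5. Dip tag 5 had 107 TPM at SD day 2 and 694 TPM at SD day 5, while LD gave 338 TPM at day 0, 496 TPM at day 2 and 575 TPM at day 5. Dip tag 6, the tag that lies exactly on the threshold, was nearly level outside SD day 2. It had 157 TPM at SD day 2 and 472 TPM at SD day 5, while LD gave 501 TPM at day 0, 483 TPM at day 2 and 475 TPM at day 5. Dip tag 7 had 89.5 TPM at SD day 2 and 466 TPM at SD day 5, while LD gave 292 TPM at day 0, 365 TPM at day 2 and 415 TPM at day 5. Dip tag 8 had 43.0 TPM at SD day 2 and 511 TPM at SD day 5, while LD gave 184 TPM at day 0, 478 TPM at day 2 and 347 TPM at day 5. In dip tags 7 and 8 the lowest level besides that of SD day 2 was that of LD day 0.

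At SD day 5 the level was back at that of LD day 5 or somewhat above it for most of the 123 tags. The ratio of SD day 5 to LD day 5 had a median of 1.15, a middle range from 0.967 to 1.38 and extremes of 0.478 and 3.03. Over all 6208 tags the median of the same ratio was 0.931. On the log2 scale with 1 TPM added, the medians were 0.20 for the 123 tags (95% binomial interval of the median 0.13 to 0.25) and -0.10 for all tags. That interval concerns the median over tags, which share the same libraries and are not replicates. It does not measure variation between plantlets or library preparations. With 1 TPM added, 99 of the 123 tags (80.5%) lay within 1.5-fold of LD day 5, 20 (16.3%) lay more than 1.5-fold above it and 4 (3.25%) more than 1.5-fold below it. Among all tags the shares were 69.6% within, 9.81% above and 20.6% below. Also with 1 TPM added, a difference of 2-fold with a counting interval excluding 1 was found for 3 tags above LD day 5 and 0 below it, against 2.84% and 8.47% of all tags. At 1.5-fold the same call gave 19 tags above and 4 below, against 8.62% and 18.2% of all tags. By the deposited values alone, 4 tags were 2-fold or more above LD day 5 and 2 were 2-fold or more below it. The share of all tags by deposited values alone was not counted, so neither an excess nor a lack is read from these counts. The counting interval of the deposited ratio lay above 1 for 44 tags (35.8%), against 16.5% of all tags, and below 1 for 11 (8.94%), against 25.2%. It spanned 1 for the other 68. SD day 5 exceeded LD day 5 in 84 tags (68.3%), against 43.2% of all tags. SD day 5 was the highest of the 5 libraries for 78 tags (63.4%), against 22.3% of all tags. It was at or above LD day 0 for 114 tags (92.7%), against 49.6% of all tags, and at or above LD day 2 for 104 tags (84.6%), against 46.7%. The rule bars SD day 2 from being the highest library and asks SD day 5 to lie 3-fold above it. These shares are therefore partly set by the choice of tags, and are given as a description.

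**Figure D2:**
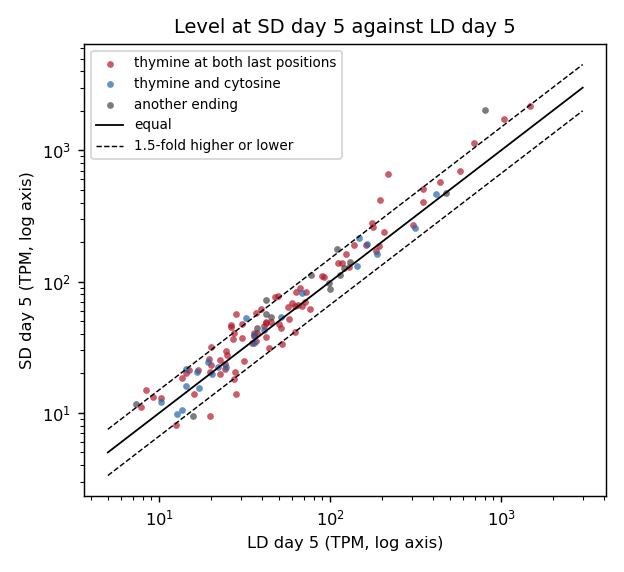
SD day 5 against LD day 5 for the 123 tags, both in TPM on log axes, with lines at equality and at 1.5-fold in either direction. Most points lie between the dashed lines, and the ratio of the deposited values runs from 0.478 to 3.03 with a median of 1.15.

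The tags that went furthest beyond LD day 5 were dip tags 12, 2, 14 and 70. Dip tag 12 had 23.4 TPM at SD day 2 and 663 TPM at SD day 5, while LD gave 85.4 TPM at day 0, 166 TPM at day 2 and 219 TPM at day 5. Its SD day 5 value was 3.03 times that of LD day 5 (interval 2.79 to 3.29). The ratio was 2.53 for dip tag 2 (interval 2.43 to 2.65). Dip tag 14 had 21.1 TPM at SD day 2 and 421 TPM at SD day 5, while LD gave 66.8 TPM at day 0, 140 TPM at day 2 and 195 TPM at day 5. Its ratio of SD day 5 to LD day 5 was 2.16 (interval 1.98 to 2.37), and that of dip tag 70 was 2.02 (interval 1.58 to 2.59). The least complete return was that of dip tag 110, at 1.71 TPM at SD day 2 and 9.45 TPM at SD day 5, while LD gave 11.0 TPM at day 0, 11.8 TPM at day 2 and 19.8 TPM at day 5. Its SD day 5 value was 0.478 of that of LD day 5 (interval 0.306 to 0.730), though still 5.53 times its value in SD day 2. Dip tag 99 reached 0.498 of LD day 5 (interval 0.347 to 0.705), dip tag 114 reached 0.601 (interval 0.380 to 0.937) and dip tag 46 reached 0.638 (interval 0.502 to 0.808). The highest value of these 4 in any library was 81.5 TPM, for dip tag 46 at LD day 2. Dip tag 46 had a mean of 53.7 TPM over the libraries other than SD day 2, above the members' median of 37.1 TPM. Dip tags 99, 110 and 114 lay below that median.

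The 123 tags differed from the rest in a feature that the rule did not use, the last 2 of their 21 positions. At position 21, 83.7% of them had T, against 32.4% of the 6208 tags, and at position 20 it was 77.2% against 31.6%. T stood at both positions in 85 of the 123 tags (69.1%), against 11.4% of all tags. In another 23 (18.7%, against 10.6% of all tags) the 2 positions held 1 T and 1 cytosine. The remaining 15 (12.2%, against 78.0% of all tags) had one of 9 other endings. The base composition differed by 45.6 percentage points at position 20 and 51.4 at position 21, but by at most 13.1 points at any position from 5 to 19. As background, in tag libraries of this kind an enzyme cuts the tag free at a set distance from the restriction site, and the second adapter is joined to that cut end. The labels name the kit and not this enzyme.

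**Figure D3:**
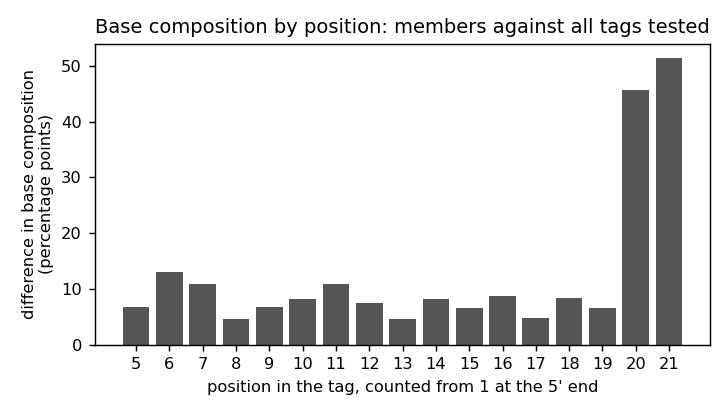
Difference in base composition between the 123 tags and all 6208 tags, for each position of the tag from 5 to 21, as the sum over bases of the positive differences in percentage points. Positions 20 and 21 stand at 45.6 and 51.4 points, and the others at 13.1 points or less.

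The low in SD day 2 was found across tags with this ending, members or not. Of all 706 tags with T at both positions, 514 (72.8%) had their lowest value in SD day 2, against 14.1% of the 4845 tags that ended in neither this way nor in 1 T and 1 cytosine. On the log2 scale with 1 TPM added, the 706 tags had a median difference of -1.63 between SD day 2 and the mean of the other 4 libraries. Those ending in cytosine then T, or T then cytosine, had medians of -0.70 and -0.70, and the other 13 endings had medians from -0.36 to 0.72. The 85 members with T at both positions had a median log2 ratio of SD day 2 to LD day 2 of -2.77, against -1.57 for the 621 other tags with that ending, a gap that the choice of members by this ratio sets. Members made up 12.0% of the tags with T at both positions, 3.50% of those with 1 T and 1 cytosine and 0.310% of the rest.

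The same ending took different shares of whole libraries. Tags with T at both positions made up 5.47% of the listed sum at SD day 2 and 20.04% at SD day 5, and in LD 8.30% at day 0, 15.97% at day 2 and 17.1% at day 5. With the 123 members left out, the shares were 5.29% at SD day 2 and 18.4% at SD day 5, and in LD 7.63% at day 0, 14.8% at day 2 and 15.9% at day 5. The libraries stood in the same order for this share as for the summed level of the 123 tags.

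**Figure D4:**
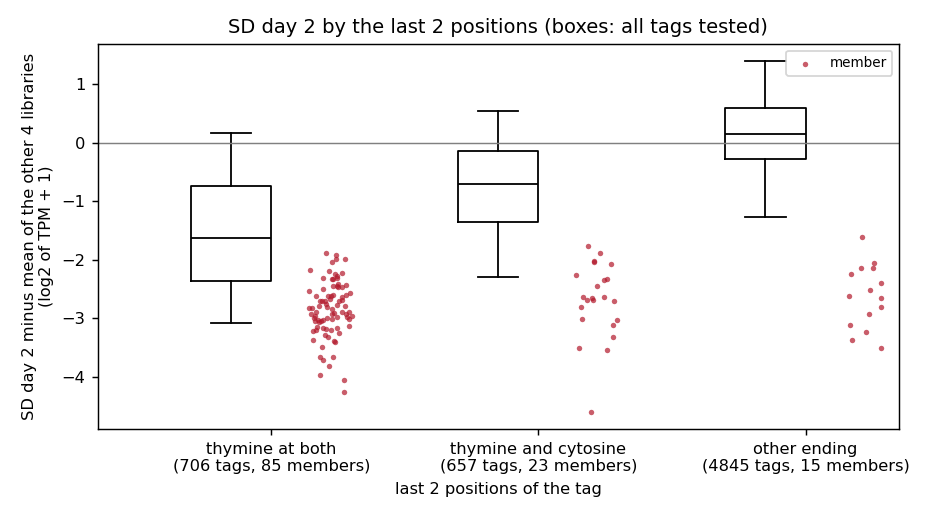
Difference between SD day 2 and the mean of the other 4 libraries, on the log2 scale with 1 TPM added, for all 6208 tags by their last 2 positions. Boxes show quartiles and median of all tags with whiskers at the 5th and 95th percentiles, red points show members, and the median is -1.63 for the 706 tags with thymine at both positions.

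After each library's log2 values were centred on the median of the tags with the same last 2 bases, 22 tags met the rule, or 0.354% of the 6208, and 19 of these were among the 123. This centring was added after the endings had been seen. Under the same centring the rule found 20 tags low at SD day 5 (0.322%), and in LD 22 at day 0 (0.354%), 3 at day 2 (0.0483%) and 8 at day 5 (0.129%). Of the 19 tags, 7 had T at both positions, 1 had 1 T and 1 cytosine, and 11 had another ending. Over all 123 members, the median centred log2 ratio of SD day 2 to the lowest other library was -1.02. It was -0.96 over the other 104 members, which by definition fell short of 3-fold after centring. With 1 library per group, the plantlets of SD day 2 and the making of that library cannot be told apart.

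**Figure D5:**
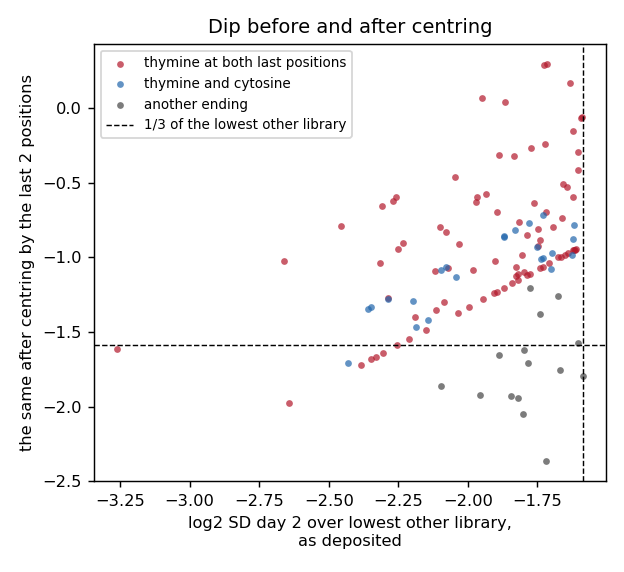
Log2 ratio of SD day 2 to the lowest other library for the 123 tags, as deposited (horizontal) and after centring by the last 2 positions (vertical), with dashed lines at 1/3. The 19 tags below the horizontal line meet the rule on both scales.

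Of the 15 tags with another ending, 11 met the rule after centring and 4 did not, and those described here were chosen after their values were seen. Dip tags 2 and 6, described above, are the most abundant of these 15, and both met the rule after centring. Dip tag 26 had 15.4 TPM at SD day 2 and 140 TPM at SD day 5, while LD gave 53.0 TPM at day 0, 114 TPM at day 2 and 130 TPM at day 5. Its centred log2 ratio, -2.37, was the lowest of all members. Before centring its log2 ratio was -1.72, less deep than the members' median of -1.83. Dip tag 32 had 16.5 TPM at SD day 2 and 112 TPM at SD day 5, while LD gave 67.1 TPM at day 0, 80.4 TPM at day 2 and 114 TPM at day 5. Dip tag 22 had 27.7 TPM at SD day 2 and 126 TPM at SD day 5, while LD gave 98.7 TPM at day 0, 129 TPM at day 2 and 120 TPM at day 5. In dip tags 6 and 22 the libraries other than SD day 2 lay closer together than in dip tags 26 and 32. Dip tags 31, 42, 51, 64, 79 and 114 also met the rule after centring. Dip tags 36, 37, 60 and 116 did not, with centred log2 ratios of -1.26, -1.38, -1.57 and -1.21. The return at SD day 5 was within 1.5-fold of LD day 5 for 10 of the 15 tags (66.7%, against 68.3% of all tags with such endings), and 4 (26.7%, against 9.56%) were more than 1.5-fold above it.

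The return at SD day 5 is given by ending as well. Among the 85 members with T at both positions the median log2 ratio of SD day 5 to LD day 5 was 0.22, against 0.09 for the 621 other tags with that ending. Among the 23 members with 1 T and 1 cytosine it was 0.06, against -0.16 for the 634 other tags with those endings, and among the 15 members with another ending it was 0.24, against -0.13 for the 4830 other tags. The 95% binomial intervals over tags were 0.14 to 0.31 for the members with T at both positions and -0.01 to 0.61 for those with another ending. The latter rests on 15 tags and is wide, so it cannot show whether these medians are alike. Within 1.5-fold of LD day 5 lay 78.8% of the members with T at both positions, close to the 79.9% of all tags with that ending. After centring, the median log2 ratio of SD day 5 to LD day 5 was 0.17 for the 123 tags and 0.03 for all tags.

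The 123 tags were not near-copies of each other or neighbours in the files. No 2 of them had fewer than 4 mismatches, and in each of the 5 files 0 pairs stood in adjacent rows. The guanine and cytosine content between the restriction site and the last 2 positions had a median of 40.0% in the 123 tags and 33.3% in all 6208 tags. With the last 2 positions included, the median was 35.3% in both.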

How the data were processed

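The authors deposited 1 file per library with each tag and its value, headed TPM per the file headers, which is an RPM unit: the tag count scaled to the library total, with no division by length. The library totals were computed from the step between values, of which all were whole multiples within 0.006 TPM, with 3 exceptions in SD day 2. The lowest value was 2 tags. Listed tags held 50.9% to 59.7% of the totals. No aligner, reference or tag filter is named in the labels or headers. Tags missing from a library were left out, not set to 0.

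The members, named tags and lists were chosen with earlier results of these data known. Named were the 8 most abundant members, the 6 deepest dips, the 4 highest and 4 lowest ratios of SD day 5 to LD day 5, and 2 tags on each side of the threshold. Ratios were taken from deposited values, with Clopper-Pearson 95% intervals conditional on the summed tags (scipy 1.17.1, Python 3.11.15). Ties at 1/3 counted as inside. No test was run, since each group has 1 library. The scripts were tested on simulated data. Alternatives were other scalings, pseudocounts, floors, factors and sets of libraries.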

Additional observations from a re-analysis of the deposited data

Results flagged for a closer look

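A signal outside the comparisons lay in tags that SD day 2 did not list. Of 236 tags at 10 TPM or more in each of the other 4 libraries and not listed in SD day 2, 63 (26.7%) had T at both last positions. The same count for tags missing from another library was 8 of 192 (4.17%) in SD day 5, 24 of 215 (11.2%) in LD day 0, 17 of 180 (9.44%) in LD day 2 and 13 of 182 (7.14%) in LD day 5. These tags could not enter the set of 123, since the rule needs a value in all 5 libraries. The part of library preparation in this was not tested.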

How the results depend on the processing

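Of 63 alternative values, 42 stayed within 1.5 times the count or within the interval of the median or share, and 21 did not. The intervals of the median and share are taken over tags, not replicates, and serve only as a yardstick of size. The number of tags was 201 with a pseudocount of 0.1 TPM, 32 with 5 TPM, 66 with a floor of 50 TPM, 390 with a factor of 2, 10 with a factor of 5, and 570 without LD day 0 in the rule. Added after seeing the data, it was 22 after centring by the last 2 bases and 38 without tags ending in T at both positions. The median log2 depth was -1.83 as reported, -1.94 and -1.67 with pseudocounts of 0.1 and 5 TPM, -1.37 and -2.41 with factors of 2 and 5, and -2.26 without LD day 0. The median log2 ratio of SD day 5 to LD day 5, 0.20 as reported, was 0.32 with TMM factors and 0.39 with median-of-ratios factors, under which the median of all tags was 0.02 and 0.09, against -0.10 without factors. It was 0.069 in the tags found after centring, 0.11 without T at both positions, and turned to -0.032 in the 10 tags at a factor of 5. The share within 1.5-fold of LD day 5 was 67.2% with median-of-ratios factors and 90.0% at a factor of 5. Called at 1.5-fold in place of 2-fold, 23 tags differed between SD day 5 and LD day 5, 19 above and 4 below, against 8.62% and 18.2% of all tags. T at both positions made up 54.4% to 78.1% of the tags under every other setting tried, apart from the centring (31.8%) and the removal of these tags. The cause of these shifts was not tested, beyond fewer or more tags passing by construction. No paired analysis was possible because each group has 1 library and no replicate numbers are shared. Depth limits the scarcer tags, where SD day 2 rests on a few counted tags.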

Other observations

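The tags that the same rule found low in other libraries also had uneven endings. Of the 46 tags low in SD day 5, 27 ended in guanine then adenine, against 7.43% of all 6208 tags, and 0 had T at both positions. Of the 38 tags low in LD day 0, 28 ended in guanine, against 20.1% of all tags, and 1 had T at both positions.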
